A study of Danio rerio with 2 samples.

Results

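The Sox transcription factors described here are 9 zebrafish genes, namely *sox2*, *sox3* and *sox19a* of the SoxB1 group, *sox4a*, *sox4b*, *sox11a* and *sox11b* of the SoxC group, and *sox9a* and *sox9b* of the SoxE group. They were chosen by name, and unique molecular identifiers (UMIs, tags that mark single captured mRNA molecules) of gene IDs with the same symbol were summed. They are 9 of 31323 gene symbols in the tables and 9 of 26 Sox symbols that were followed. Levels called SoxB1 or SoxC are sums over these members only, without other Sox genes such as *sox1b*, *sox19b* and *sox12*. All 9 were detected in both libraries, and together they held 83.0% of the Sox UMIs in the mutant library and 81.2% in the sibling library.

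Sox proteins bind DNA through an HMG domain and act in successive steps of a cell lineage. SoxB1 factors are known for holding neural stem and progenitor cells in an undifferentiated state. SoxC factors are known in mouse and chick for switching on neuronal genes as progenitors become neurons. SoxE factors, of which Sox9 is one, are known for glial cells, neural crest and cartilage, where Sox9 acts directly on collagen genes.

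The series holds 2 single-cell RNA libraries made from dissociated whole brains of zebrafish larvae at 3 days post fertilization (dpf). One library came from larvae homozygous for the smu2 allele of *rb1* (*rb1*smu2/smu2), called the rb1 mutant here, and the other from siblings whose genotype label is wt. *rb1* encodes the retinoblastoma protein, which restrains entry into S phase. The number of larvae pooled per library was not given in the sources used here, and no drug treatment is named in the labels.

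With 1 library per genotype there was no replicate and no test between genotypes could be made. Differences between the libraries could be genotype, pool of larvae or preparation, which cannot be told apart. Levels are given as counts per 1000000 UMIs (CPM), both summed over the cells of a group. Values in parentheses after a level, ratio or share are exact 95% intervals that cover counting error only and not the variation between larvae. Those of levels, ratios and shares of UMIs take UMIs as independent, although 1 cell can hold many UMIs of a gene.

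After filtering, 7873 rb1 mutant and 7539 sibling cells remained, with 31887164 and 28869101 UMIs and a median of 3598 and 3313 UMIs per cell. The libraries shared 16 cell barcodes, of which 15 were among the retained cells of both. *rb1* itself had 5.39 CPM (172 UMIs) in the mutant and 5.99 CPM (173 UMIs) in the sibling, but a count at the 3′ end of a transcript need not show a lesion elsewhere in the gene, so this level checks no label. The median ratio of mutant over sibling was 0.921 over 13498 genes, which is −0.12 on the log2 scale.

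Cells were assigned to types by counting detected marker genes, with no Sox gene among the markers. The label of both libraries calls the cells neurons. The gates also held other types, such as cartilage cells (152 and 147 cells in mutant and sibling) and connective mesenchyme (616 and 617). Photoreceptors and their precursors of the retina made up a further gate (526 and 411). In these gates the absence of neuronal markers was not asked for. Progenitors that met no retinal, skin or other gate set apart first are called brain progenitors here, although no brain marker was asked for. They fell into 4 gates without *elavl3*, a marker of postmitotic neurons: radial glia (192 and 102 cells), cells with mitotic genes (179 and 134), *her*-positive progenitors (217 and 162) and neurogenic precursors (58 and 50). Cells with *elavl3* were divided into those with mitotic genes (367 and 88), and newborn (444 and 324), intermediate (621 and 434) and mature neurons (1743 and 1848), by how many of 10 synaptic and neuronal genes they showed. The markers of each list were compared with the other cells by a 2-fold rule. In the *her*-positive gate 4 of 8 markers passed in the mutant and 7 of 8 in the sibling, and in every other gate checked at most 2 markers fell short. Among these, bipolar cells of the retina had 4 of 6 in the mutant and 6 of 6 in the sibling, and neurogenic precursors 7 of 9 in both.

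The epidermis list holds 9 genes that mark skin, among them keratins, *epcam*, *cldni* and *tp63*. Outside the epidermis gate its summed level was 139 CPM in the mutant and 1272 CPM in the sibling. A UMI of the list was found in 21.8% and 60.5% of those cells. Within the epidermis gate itself, *elavl3* was detected in 2.63% of mutant and 42.5% of sibling cells. The part of this difference in the Sox values was not tested beyond gating without the epidermis list, which moved no summed value by more than the counting error.

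Among the 15 gates with at least 50 cells in both libraries, within which all orders of levels are given, SoxB1 genes were highest in radial glia, the stem-like glial cells that line the ventricles. The summed level of *sox2*, *sox3* and *sox19a* was 1166 CPM (1095 to 1241) in mutant radial glia and 796 CPM (719 to 879) in sibling radial glia. Mitotic progenitors had 480 CPM in the mutant and 517 CPM in the sibling. Mature neurons stood at 48.8 and 52.5 CPM. A SoxB1 UMI was found in 91.7% of mutant and 83.3% of sibling radial glia, and in 61.6% and 48.9% once each cell was thinned to 1000 UMIs. Red blood cells, microglia and muscle together were used as a gauge of free RNA. They were picked for their few Sox UMIs, so their low values are no independent support for the levels elsewhere. A SoxB1 UMI was found in 1.61% of these cells in the mutant and 3.08% in the sibling, at median depths of 11171 and 11216 UMIs. Radial glia had median depths of only 4086 and 4543 UMIs. Cells with *elavl3* that also met the radial glia list were left out of these gates, and their 58 mutant and 25 sibling cells held 8.18% and 2.77% of the SoxB1 UMIs. Their SoxB1 level was 1233 CPM (1118 to 1357) in the mutant and 676 CPM (548 to 824) in the sibling, with intervals that overlapped those of radial glia.

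**Figure D1:**
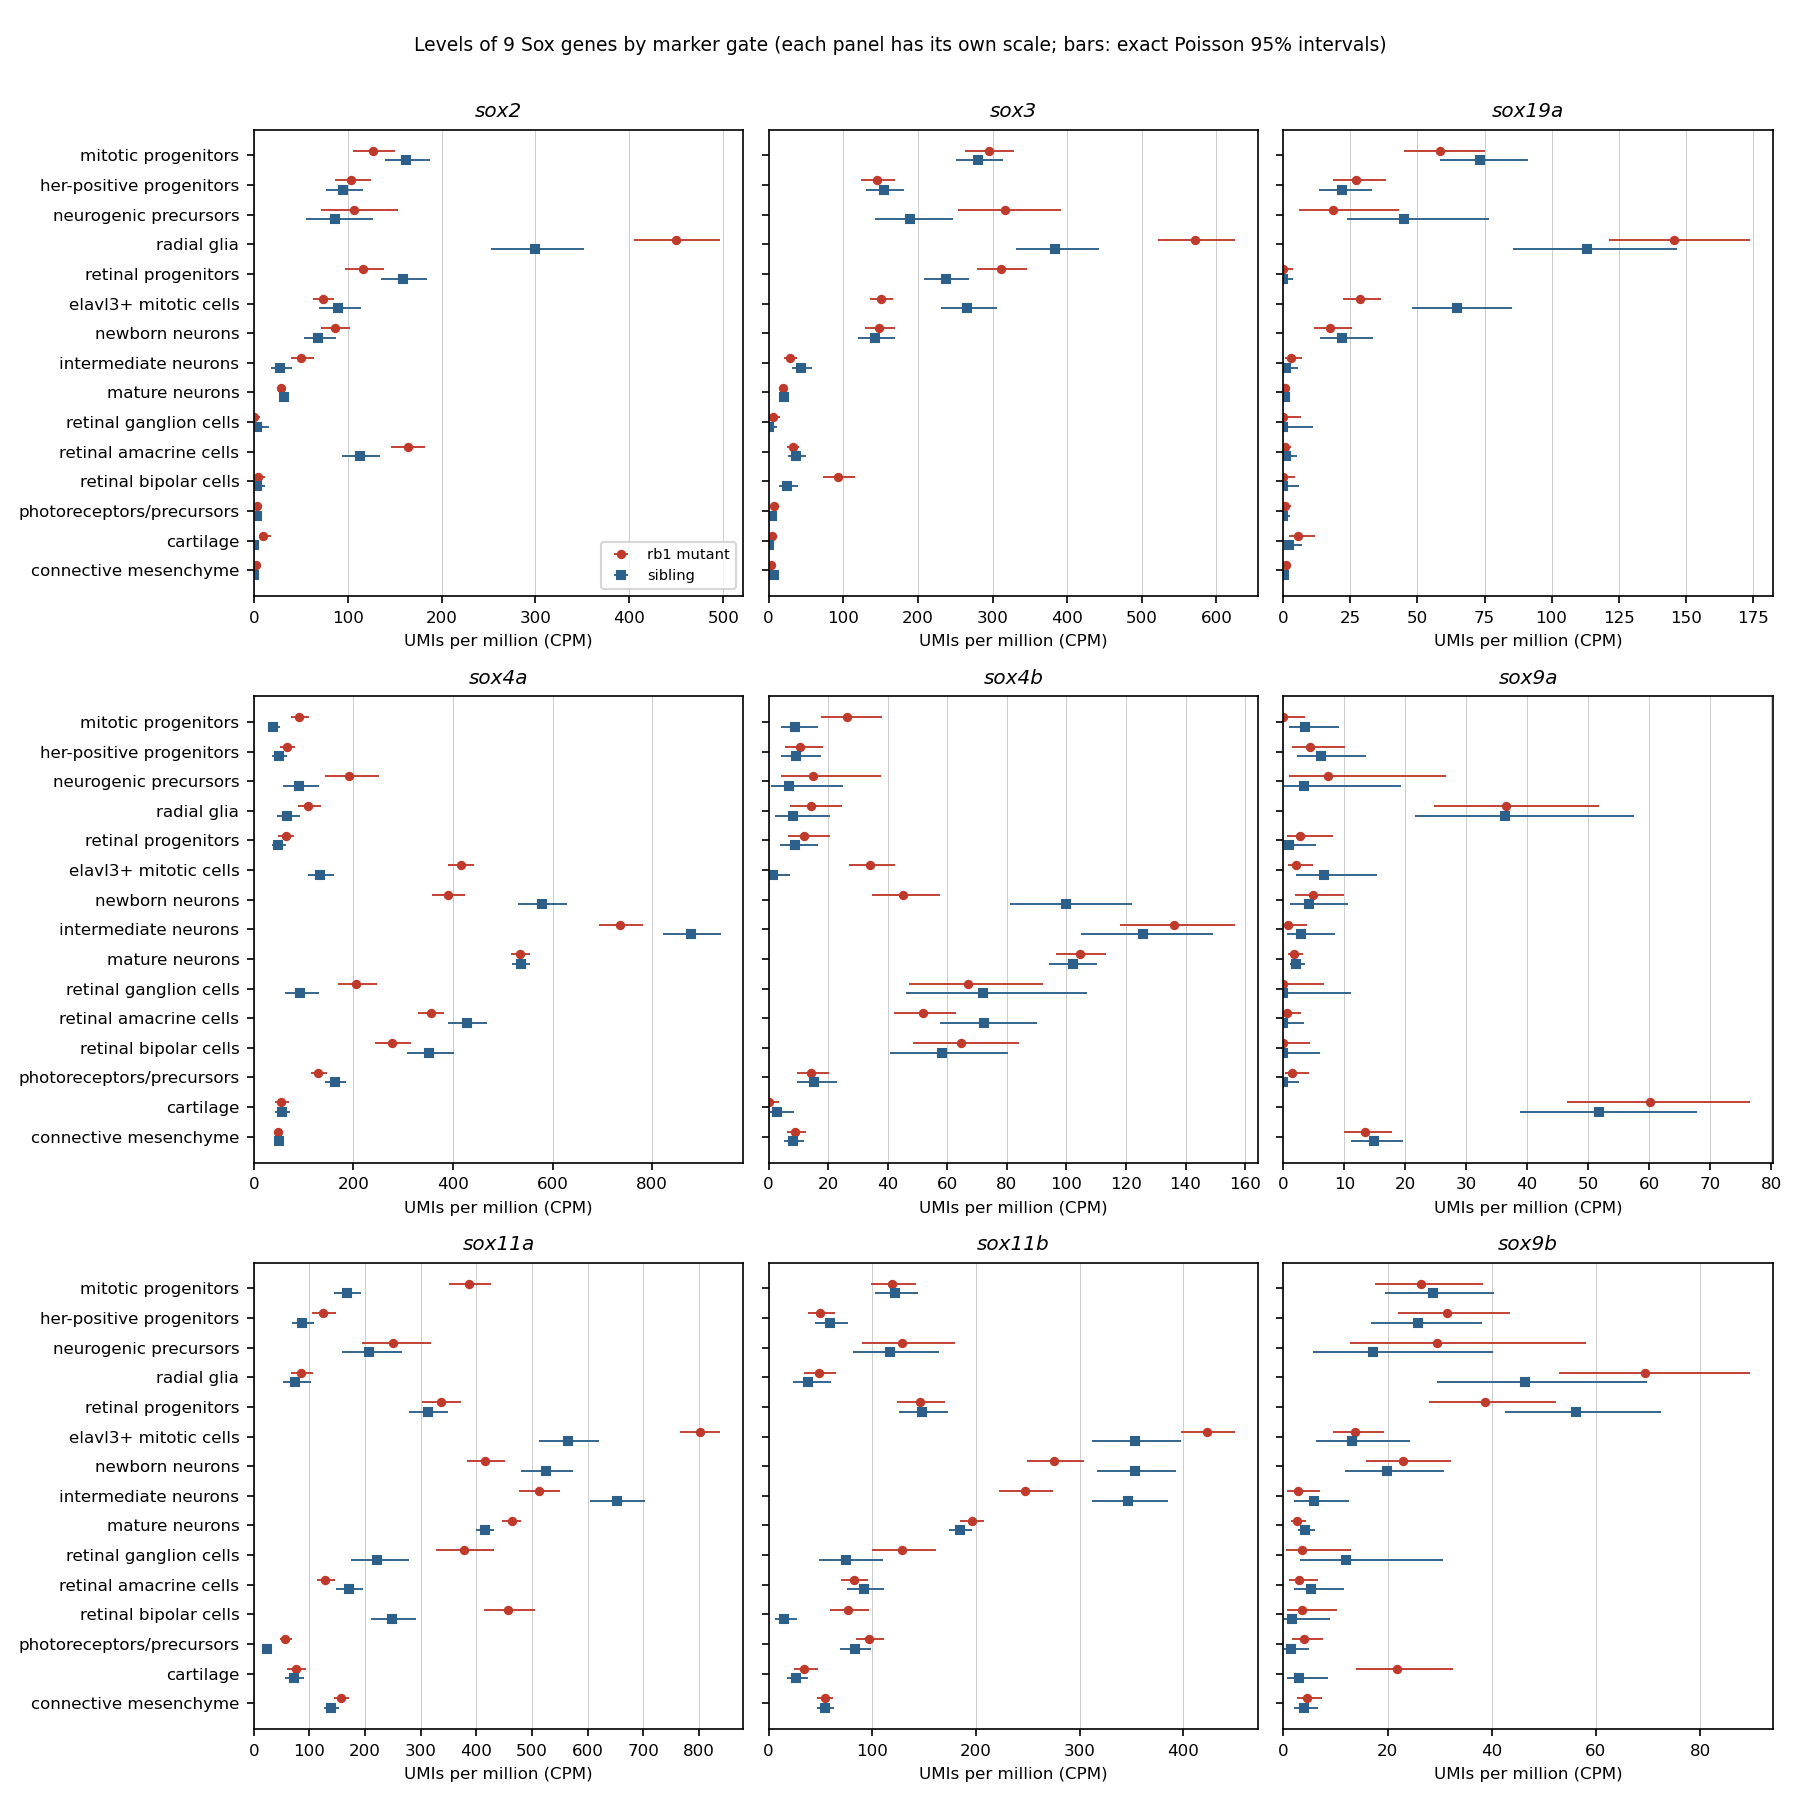
Levels of each of the 9 Sox genes in CPM (x axis, own scale per panel) for the 15 marker gates with at least 50 cells in both libraries. Circles are the rb1 mutant and squares the sibling, with exact Poisson 95% intervals as bars. *sox2* reaches 449 CPM in mutant and 299 CPM in sibling radial glia, while *sox9a* peaks in cartilage at 60.1 and 51.8 CPM.

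*sox2*, the best known stem cell factor of the group, had 449 CPM (405 to 497) in mutant radial glia and 299 CPM (253 to 351) in sibling radial glia. None of the other 14 gates had an interval that reached these, but the *elavl3* cells with radial glia markers had 382 CPM (319 to 453) in the mutant and 209 CPM (141 to 298) in the sibling, which overlapped them. Among the 15 gates of the mutant, amacrine cells, inhibitory interneurons of the retina, came next with 164 CPM (146 to 183), whose interval overlapped that of mitotic progenitors at 127 CPM (106 to 150). In the sibling, mitotic progenitors (162 CPM, 139 to 187) and retinal progenitors (159 CPM, 135 to 185) could not be ordered. Amacrine cells had a lower value of 113 CPM (93.9 to 134), with an upper limit close to the lower limit of retinal progenitors. Their 126 UMIs came from 22 of 255 cells, so this order is not firm. A minority of amacrine cells held these UMIs, with a *sox2* UMI in 14.8% of mutant and 8.63% of sibling cells (10.1% and 6.72% thinned). The most in 1 amacrine cell was 22 and 13 UMIs. Of mitotic progenitors, 34.6% and 49.3% had a *sox2* UMI (10.1% and 13.3% thinned). Among differentiated neurons, the amacrine level stood apart from the retinal ganglion cells, the output neurons of the retina, in which *sox2* had 0 UMIs in the mutant and 1 in the sibling. The amacrine level was at least 30.2-fold higher than that of ganglion cells in the mutant, and 37.7-fold higher (6.64 to 1500) in the sibling.

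*sox2* was also unevenly divided among mature neurons, which met no retinal gate. The amacrine gate asked for 3 of 6 markers, so amacrine cells with fewer could be among them, which was not tested. GABAergic neurons, which make an inhibitory transmitter, had 59.2 CPM in the mutant and 98.4 CPM in the sibling. Glutamatergic neurons, which are excitatory, had 10.8 and 5.95 CPM. The ratio of GABAergic over glutamatergic neurons was 5.45 (3.07 to 10.2) in the mutant and 16.5 (9.13 to 32.8) in the sibling. *sox2* was likewise present in 2 small glial gates that were too few in cells for an order. Müller glia, the radial glia of the retina, had 9 UMIs in 6 mutant cells and 27 UMIs in 13 sibling cells. The oligodendrocyte lineage, which makes myelin, had 14 UMIs in 6 mutant cells and 15 UMIs in 12 sibling cells, and there *sox3* and *sox19a* had 0 UMIs in both libraries.

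*sox3* had the same top gate, with 571 CPM (522 to 625) in mutant radial glia and 384 CPM (331 to 443) in sibling radial glia. The *elavl3* cells with radial glia markers overlapped this with 655 CPM (571 to 746) in the mutant and 362 CPM (271 to 475) in the sibling. Retinal progenitors had 312 CPM in the mutant and 237 CPM in the sibling, and mitotic progenitors had 295 and 281 CPM. Neurogenic precursors, which express proneural and delta genes, had 317 CPM (254 to 392) and 190 CPM (143 to 247). Within retinal progenitors the level went with the mitotic genes: cells that met the mitotic list had 363 CPM in the mutant and 264 CPM in the sibling, and those that did not had 55.4 and 47.1 CPM.

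*sox19a*, a SoxB1 gene of fishes, was found mainly in brain progenitors. It had 146 CPM (121 to 174) in mutant radial glia and 113 CPM (85.5 to 147) in sibling radial glia, 197 CPM (152 to 250) and 105 CPM (58.5 to 172) in the *elavl3* cells with radial glia markers, and 58.6 and 73.4 CPM in mitotic progenitors. In retinal progenitors not 1 UMI of *sox19a* was found in 143 mutant or 129 sibling cells, which allows up to 2.77 and 2.90 CPM. Mitotic progenitors were therefore at least 21.2-fold higher in the mutant and at least 25.3-fold higher in the sibling. In mature neurons only 4 mutant and 3 sibling UMIs were seen among 1743 and 1848 cells.

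The 3 SoxB1 members did not divide their UMIs alike in different cells. *sox2* made up 44.0% of the summed *sox2* and *sox3* UMIs in mutant radial glia and 43.8% in sibling radial glia. Its share was 30.0% and 36.6% in mitotic progenitors, 60.0% and 61.3% in mature neurons, and 83.6% and 75.4% in amacrine cells. In bipolar cells, the interneurons between photoreceptors and ganglion cells, it was 4.82% in the mutant and 11.8% in the sibling. Because the 3′ end counting may favour one transcript over another, these shares were read only across cell types.

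SoxC genes were highest in gates of cells with *elavl3*, but this was not a plain reverse of SoxB1. The summed SoxC level was 1632 CPM in mutant and 2004 CPM in sibling intermediate neurons, against 256 and 188 CPM in radial glia. Mitotic progenitors (624 and 337 CPM) and neurogenic precursors (586 and 421 CPM) lay above radial glia. The *her*-positive progenitors had 251 CPM (223 to 282) and 206 CPM (178 to 237), which could not be ordered against radial glia. Retinal progenitors had 558 and 518 CPM. Mature neurons had 1299 CPM (83.0% of cells with a UMI, 62.4% thinned) in the mutant and 1238 CPM (76.8%, 57.0% thinned) in the sibling. In the cells used to gauge free RNA, SoxC stood at 44.3 CPM in the mutant and 43.6 CPM in the sibling, with a UMI in 12.9% and 21.5% of cells.

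**Figure D2:**
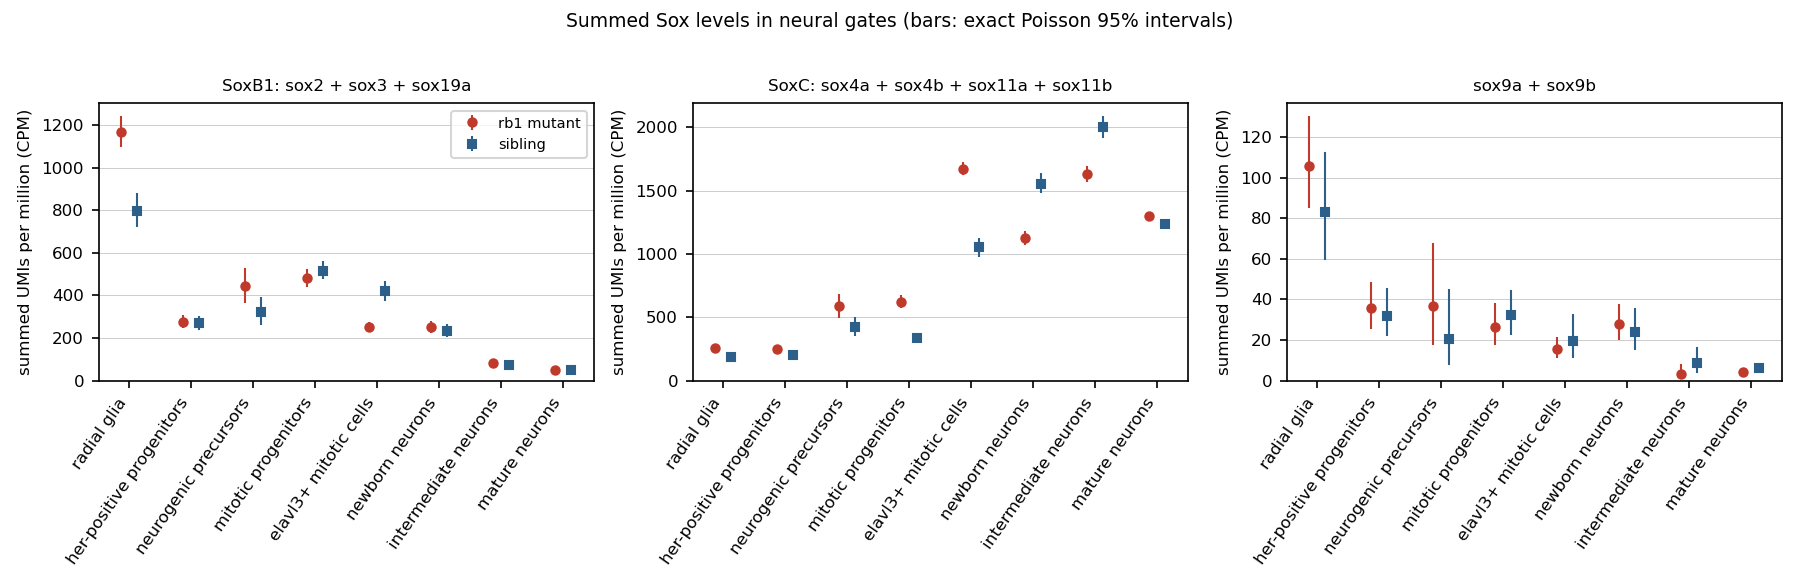
Summed levels in CPM (y axis) of SoxB1, SoxC and the *sox9* genes in 8 neural gates (x axis). Circles are the rb1 mutant and squares the sibling, with exact Poisson 95% intervals. SoxB1 stands at 1166 and 796 CPM in radial glia and at 48.8 and 52.5 CPM in mature neurons, while SoxC peaks at 1675 CPM in mutant *elavl3*+ mitotic cells and at 2004 CPM in sibling intermediate neurons.

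The gates are steps of marker content and not measured times. Setting the 4 brain progenitor gates together against mature neurons gave a SoxB1 ratio of 11.9 (10.5 to 13.6) in the mutant and 8.80 (7.79 to 9.96) in the sibling. The SoxC ratio was 0.31 (0.29 to 0.33) in the mutant and 0.22 (0.21 to 0.24) in the sibling. By a 2-fold rule, which here is a description and not a test, *sox2*, *sox3*, *sox19a* and *sox9b* were higher and *sox4a*, *sox4b*, *sox11a* and *sox11b* lower in progenitors, the same 4 and 4 of 8 members in either library, *sox9a* having too few UMIs. Of all genes with at least 100 UMIs, 13.6% were higher and 29% lower by this rule in the mutant, and 12.8% and 41% in the sibling. *sox19a* had the widest of these ratios, 97.2 (37.4 to 360) in the mutant and 125 (42.1 to 613) in the sibling, which rest on 4 and 3 UMIs in mature neurons. With every cell thinned to 1000 UMIs and the gates kept, the SoxC ratio was 0.34 in the mutant and 0.24 in the sibling. With cells thinned first and gated again, which made 1057 mutant and 675 sibling cells progenitors and only 599 and 794 mature neurons, it was 0.54 and 0.48.

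*sox4a* and *sox4b*, duplicates of the gene that is single in mammals as *Sox4*, had their highest values in intermediate neurons. *sox4a* had 736 CPM (693 to 781) in mutant and 879 CPM (823 to 938) in sibling intermediate neurons. *sox4b* had 136 CPM (118 to 156) and 126 CPM (105 to 149) there. In mature neurons *sox4a* had 536 CPM in both libraries and *sox4b* 105 CPM (96.4 to 113) and 102 CPM (94.3 to 110). Newborn neurons of the sibling had 100.0 CPM (81.0 to 122) of *sox4b*, so that in the sibling its levels in newborn, intermediate and mature neurons overlapped and could not be ordered. Radial glia had 109 and 66.7 CPM of *sox4a*, and 14.1 and 8.08 CPM of *sox4b*.

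*sox11a* and *sox11b*, duplicates of *Sox11*, had high levels already in cells that carried *elavl3* and mitotic genes at once. *sox11a* had 802 CPM (766 to 838) in mutant *elavl3*+ mitotic cells, and 564 CPM (512 to 620) in those of the sibling, where intermediate neurons at 653 CPM overlapped it. *sox11b* had 423 CPM (398 to 450) in mutant and 353 CPM (312 to 398) in sibling *elavl3*+ mitotic cells. In the sibling that level was matched by newborn neurons, with 353 CPM (317 to 393). Mature neurons had 463 and 415 CPM of *sox11a*, and 196 and 185 CPM of *sox11b*.

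Newborn neurons had a median of 3353 UMIs in the mutant and 3039 in the sibling, intermediate neurons 1920 and 1772, and mature neurons 3277 and 3441, and the number of marker genes that a cell shows depends on its depth. The SoxC genes differed among themselves between newborn and mature neurons. *sox11b* was 1.41-fold higher (1.25 to 1.58) in newborn than in mature neurons in the mutant and 1.91-fold higher (1.69 to 2.16) in the sibling. *sox4b* had a newborn over mature ratio of 0.43 (0.33 to 0.56) in the mutant and 0.98 (0.78 to 1.22) in the sibling. Summed over these 4 members, without *sox12*, the ratio was 0.87 (0.82 to 0.92) in the mutant and 1.26 (1.19 to 1.33) in the sibling. With every cell thinned to 1000 UMIs and the gates kept, it was 0.96 (0.86 to 1.07) in the mutant and 1.44 (1.29 to 1.60) in the sibling. The SoxB1 ratio was 5.16 (4.4 to 6.04) in the mutant and 4.44 (3.73 to 5.28) in the sibling, and 4.68 and 4.0 after thinning with the gates kept. Thinning first and gating again placed 657 mutant and 496 sibling cells in the newborn gate, of which 200 and 169 were newborn at full depth. There the SoxC ratio was 1.21 in the mutant, on the other side of 1, and 1.89 in the sibling, and the SoxB1 ratio 2.96 and 1.91. By the 2-fold rule *sox2* and *sox3* were higher in newborn neurons in both libraries, and *sox4b* was lower in the mutant, among 6 members with enough UMIs. The share of all genes past 2-fold was 4.54% higher and 29.9% lower in the mutant, and 3.75% and 36.4% in the sibling.

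The *sox11* pair was divided differently in photoreceptors than in the other 14 gates. *sox11a* made up 36.8% (31.5 to 42.4) of the pair's UMIs in mutant photoreceptors and their precursors and 22.4% (16.2 to 29.8) in those of the sibling. Bipolar cells lay at the other end, with 85.7% in the mutant and 94.5% in the sibling. Mature neurons had 70.3% and 69.2%, and newborn neurons 60.1% and 59.8%. Levels behind these shares were 56.6 and 24.0 CPM of *sox11a* and 97.1 and 83.0 CPM of *sox11b* in photoreceptors. For the *sox4* pair, ganglion cells had the lowest share of *sox4a* among the 15 gates, 75.5% in the mutant and 56.4% in the sibling, against 85.7% and 85.1% over all cells. These rest on 114 *sox4a* and 37 *sox4b* UMIs in the mutant and 31 and 24 in the sibling. In the mutant, ganglion cells could not be ordered against several other gates, among them mitotic progenitors (97 and 28 UMIs) and bipolar cells (237 and 55 UMIs).

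**Figure D3:**
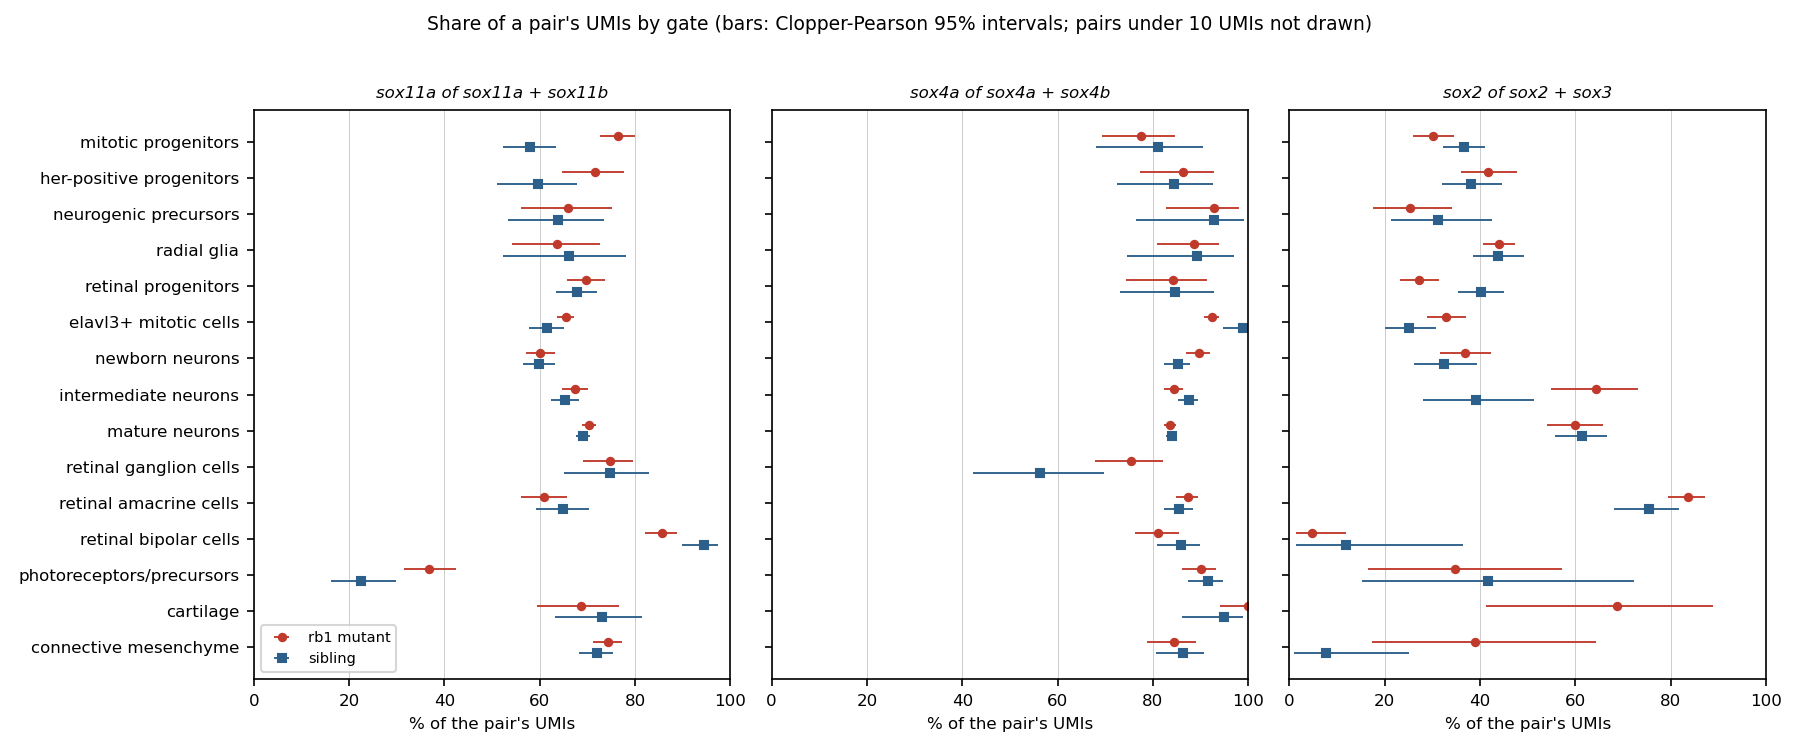
Share in % (x axis) of the first gene in the UMIs of a pair, for 3 pairs of Sox genes over 15 marker gates. Circles are the rb1 mutant and squares the sibling, with Clopper-Pearson 95% intervals, and pairs under 10 UMIs are not drawn. *sox11a* holds 36.8% and 22.4% of its pair in photoreceptors, and *sox2* holds 83.6% and 75.4% of its pair in amacrine cells.

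*sox9a*, which in zebrafish is needed for cartilage to form, had its highest value among the 15 gates in cartilage, defined by matrix genes such as *col2a1a* and *matn1*. It had 60.1 CPM (46.5 to 76.5) in mutant and 51.8 CPM (38.8 to 67.8) in sibling cartilage. The ratio of cartilage over all other cells was 8.34 (6.24 to 11.0) in the mutant and 6.90 (5.01 to 9.37) in the sibling. Against connective mesenchyme, which makes other collagens, it was 4.47 (3.05 to 6.59) and 3.47 (2.32 to 5.22). *sox9a* was the only one of 9 members more than 2-fold higher in cartilage than in other cells in either library, beside 7.64% of all genes in the mutant and 7.35% in the sibling. Past 2-fold lower were 7 members in the mutant and 8, *sox9b* included, in the sibling. The share of all genes lower was not counted. A *sox9a* UMI was found in 31.6% of mutant and 29.3% of sibling cartilage cells, at median depths of 6604 and 6155 UMIs, and in 4.67% and 3.42% after thinning. In the cells used to gauge free RNA the share was 1.61% in the mutant and 0 of 65 cells in the sibling, where 0 UMIs allow up to 4.51 CPM.

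*sox9a* had a second site in radial glia, with 36.5 CPM (24.8 to 51.7) in the mutant and 36.4 CPM (21.6 to 57.5) in the sibling. These intervals overlapped those of cartilage, and the ratio of cartilage over radial glia was 1.65 (1.06 to 2.62) in the mutant and 1.42 (0.82 to 2.58) in the sibling. In mitotic progenitors *sox9a* had 0 UMIs in the mutant and 4 in the sibling. Cells that met more than 1 gate held 25.3% of the gene's UMIs in the mutant and 36.3% in the sibling, more than cartilage did, and they were given to no type.

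*sox9b* belonged to the progenitors and glia. Radial glia had 69.4 CPM (52.8 to 89.5) in the mutant and 46.5 CPM (29.5 to 69.7) in the sibling, and retinal progenitors had 38.7 CPM (27.9 to 52.4) and 56.1 CPM (42.6 to 72.6). Mature neurons had 2.58 and 4.15 CPM. In cartilage the libraries stood apart, with 24 UMIs (21.9 CPM) in 18 mutant cells and 3 UMIs (2.93 CPM) in 3 sibling cells, a mutant over sibling ratio of 7.45 (2.26 to 38.7). The share of *sox9a* in the *sox9* pair was 73.3% in mutant and 94.6% in sibling cartilage, 34.4% and 43.9% in radial glia, and 6.67% and 1.69% in retinal progenitors.

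Setting the mutant against the sibling over all retained cells, the SoxB1 sum was 161 CPM in the mutant and 121 CPM in the sibling, a ratio of 1.33 (1.27 to 1.39). *sox2* had a ratio of 1.32 (1.23 to 1.41) and *sox3* of 1.36 (1.28 to 1.44). SoxC had 765 and 676 CPM, a ratio of 1.13 (1.11 to 1.15), in which *sox11a* (1.27, 1.23 to 1.31) and *sox11b* (1.15, 1.1 to 1.20) lay above *sox4a* (1.03, 1.00 to 1.06) and *sox4b* (0.98, 0.91 to 1.05). The *sox9* genes together had a ratio of 1.07 (0.96 to 1.20). None of the 9 members passed 2-fold, against 1.07% of all genes higher and 5.13% lower.

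These values differed when the gates were weighted alike in both libraries. Brain progenitor gates held 646 mutant and 448 sibling cells. With the mutant level of each gate weighted by the share of UMIs that the gate had in the sibling, the SoxB1 ratio was 1.1, the SoxC ratio 1.04, *sox19a* 0.88 against 1.19 and *sox11b* 0.98 against 1.15. Dividing by the median ratio of all genes gave 1.44 for SoxB1 and 1.23 for SoxC, and *sox4b* then had 1.06.

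Within the progenitor gates, the SoxB1 level was 582 CPM in the mutant and 462 CPM in the sibling, a ratio of 1.26 (1.17 to 1.35). By gate, radial glia had 1166 and 796 CPM and neurogenic precursors 443 and 321 CPM. Mitotic progenitors had 480 and 517 CPM and *her*-positive progenitors 276 and 271 CPM. Radial glia were 192 of 646 mutant and 102 of 448 sibling cells, and the part of this in the ratio was not tested. Radial glia alone had ratios of 1.50 (1.24 to 1.83) for *sox2* and 1.49 (1.26 to 1.77) for *sox3*. In mitotic progenitors *sox2* had 127 CPM in the mutant and 162 CPM in the sibling, a ratio of 0.78 (0.62 to 0.98). SoxC in the progenitor gates had a ratio of 1.45 (1.32 to 1.58), with *sox4a* at 1.82 (1.49 to 2.22) and *sox11a* at 1.62 (1.43 to 1.84), whereas *sox11b* had 0.91 (0.76 to 1.09). None of 7 members with enough UMIs passed 2-fold, where 3.01% of genes were higher and 0.709% lower.

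**Figure D4:**
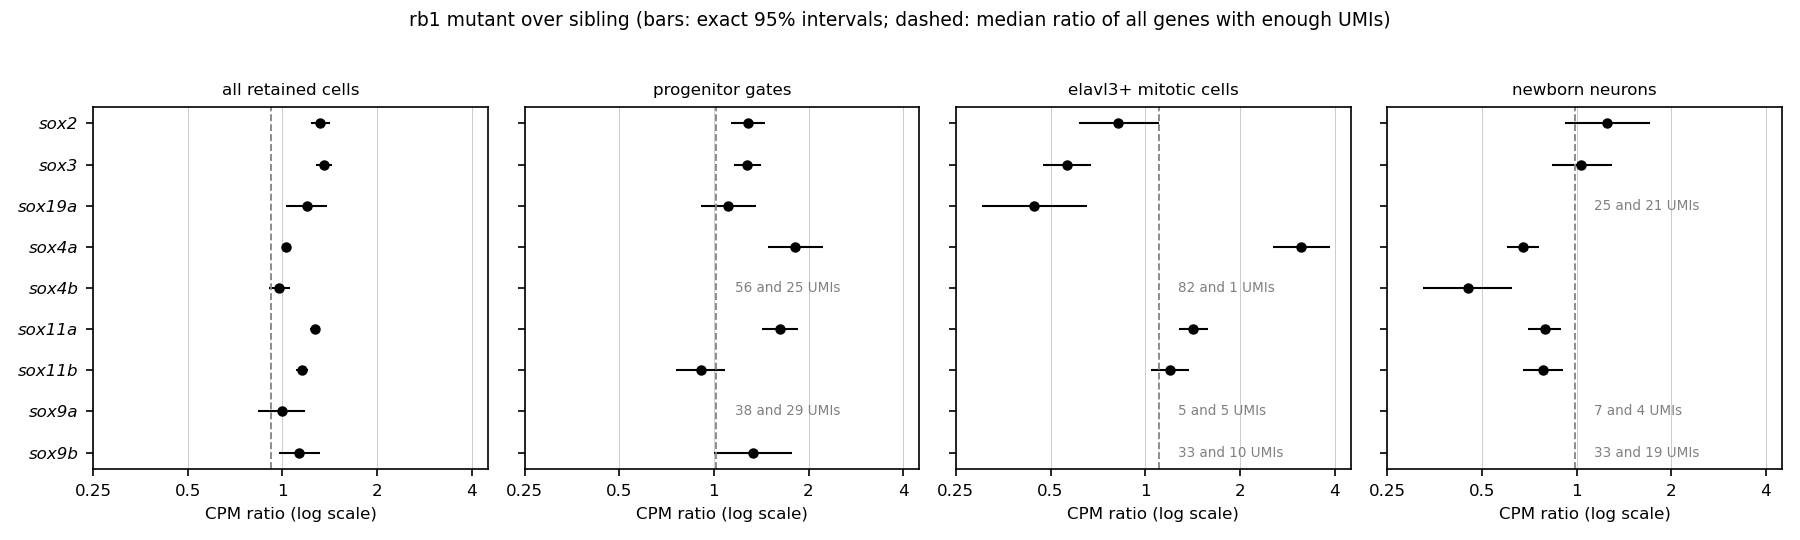
Ratio of CPM in the rb1 mutant over the sibling (x axis, log scale) for the 9 genes in all cells and in 3 groups of gates, with exact 95% intervals. The dashed line is the median ratio of all genes with enough UMIs, and genes with under 100 UMIs over both libraries are given as their UMIs in mutant and sibling. In *elavl3*+ mitotic cells *sox4a* stands at 3.12 and *sox3* at 0.57.

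In *elavl3*+ mitotic cells, of which the mutant library had 367 and the sibling 88, the SoxC sum was 1675 CPM in the mutant and 1052 CPM in the sibling, and the SoxB1 sum 253 and 420 CPM. *sox4a* had 416 CPM (390 to 442) in the mutant and 133 CPM (109 to 162) in the sibling, a ratio of 3.12 (2.54 to 3.87). *sox4b* had 82 UMIs in the mutant and 1 in the sibling, a ratio of 25.9 (4.51 to 1034). *sox3* had 150 CPM (135 to 167) in the mutant and 266 CPM (231 to 306) in the sibling, a ratio of 0.57 (0.47 to 0.67). *sox19a* had 28.7 and 64.6 CPM, a ratio of 0.44 (0.30 to 0.65). Members past 2-fold were thus *sox4a* (higher) and *sox19a* (lower) among 6 with enough UMIs, where 10.2% of all genes were higher and 2.35% lower.

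The cells compared in this gate were not alike in other genes. The list of mature neuron genes stood at 885 CPM in mutant and 173 CPM in sibling *elavl3*+ mitotic cells, the mitotic list at 6615 and 5733 CPM, and the radial glia list at 431 and 924 CPM. The part of these in the Sox ratios was not tested. Median depth was 6314 UMIs in mutant and 8188 UMIs in sibling cells of this gate. After thinning to 1000 UMIs with the gate kept, the SoxB1 ratio was 0.73 (0.48 to 1.16) against 0.60 at full depth, and the SoxC ratio 1.53 (1.24 to 1.90) against 1.59. With cells thinned first and gated again, which left 197 mutant and 34 sibling cells in the gate, they were 0.96 and 1.17.

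In newborn neurons the SoxC sum was 1127 CPM in the mutant and 1557 CPM in the sibling, a ratio of 0.72 (0.67 to 0.78). All 4 genes lay below 1, from 0.45 (0.32 to 0.62) for *sox4b* to 0.79 (0.70 to 0.89) for *sox11a*. *sox3* had 148 and 143 CPM, a ratio of 1.04 (0.83 to 1.29). *sox4b* was the only one of 6 members past 2-fold, with 3.76% of all genes higher and 1.91% lower. In mature neurons the SoxC ratio was 1.05 (1.02 to 1.08) and the SoxB1 ratio 0.93 (0.79 to 1.09).

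Retinal bipolar cells were a gate in which *sox3* differed between libraries, with 92.7 CPM in the mutant and 24.2 CPM in the sibling, a ratio of 3.83 (2.19 to 7.16). *sox11b* differed there too, with 76.3 CPM (58.9 to 97.2) in the mutant and 14.5 CPM (6.64 to 27.6) in the sibling. *sox11a* had 458 and 249 CPM, whereas *sox4a* was lower in the mutant with 278 and 352 CPM. The share of all genes past 2-fold was not counted for this gate. In the mutant 66 of 377 cells in this gate (17.5%) met the mitotic list, and in the sibling 1 of 445 (0.225%). The gate asked for 2 of 6 bipolar markers, and whether the 66 cells are bipolar cells was not tested. Mutant retinal progenitors had 312 CPM (279 to 347) of *sox3*. The 66 cells had 292 CPM of *sox3* (230 to 367), which was 75 of the gate's 79 UMIs, and the other 311 had 6.71 CPM (1.83 to 17.2). Sibling bipolar cells without the mitotic list had 24.3 CPM (13.6 to 40.1). For *sox11a* the mutant cells with the list had 811 CPM and those without 305 CPM, against 249 CPM in the sibling. For *sox2* in amacrine cells the split was smaller, with 244 CPM in 58 mutant cells with the list and 144 CPM in 342 without. The 252 sibling amacrine cells without the list had 115 CPM.

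**Figure D5:**
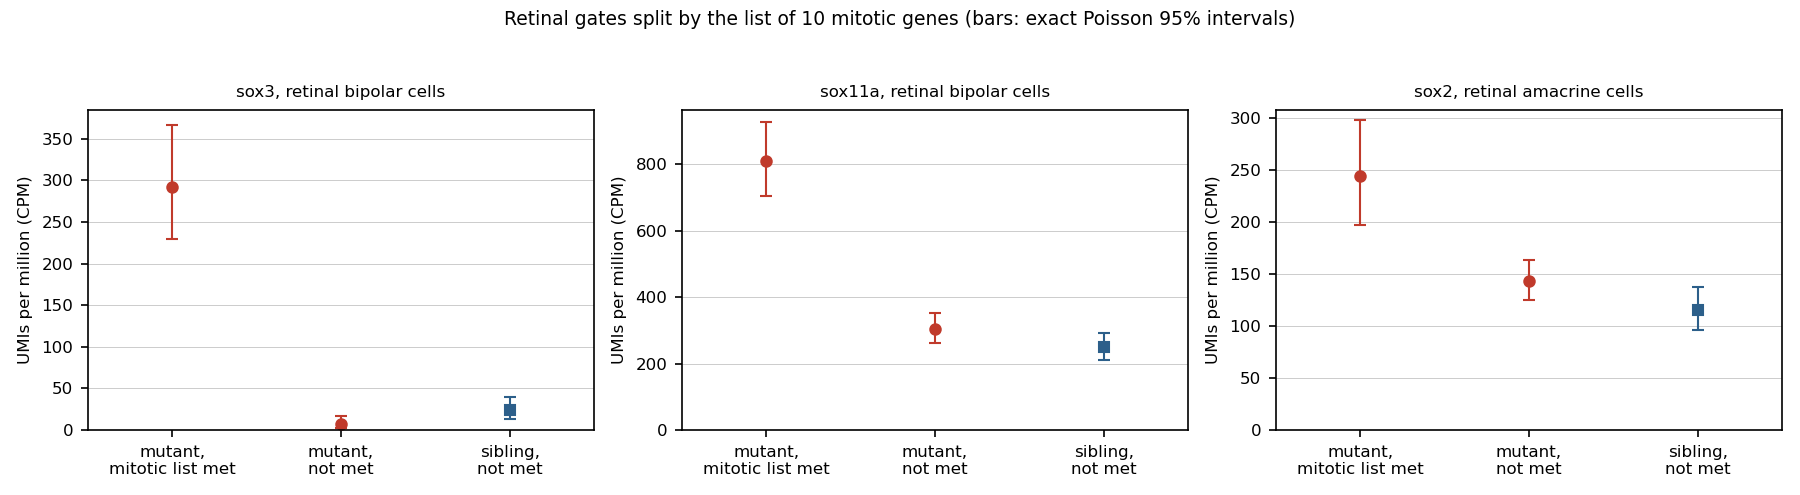
Levels in CPM (y axis) of *sox3* and *sox11a* in the bipolar gate and *sox2* in the amacrine gate, divided by whether a cell met the list of mitotic genes, with exact Poisson 95% intervals. Mutant cells are circles and sibling cells squares, and sibling cells that met the list are not drawn because there were 1 and 3. *sox3* stands at 292 CPM in mutant cells of the bipolar gate with the list, 6.71 CPM in those without and 24.3 CPM in the sibling.

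The pattern of each member over 15 gates in each of the libraries gave 30 points, which share gates, libraries and depth, and for which Pearson's r of log2(CPM + 10) is a description. *sox2* and *sox3* had r = 0.87, *sox4a* and *sox4b* 0.87, and *sox11a* and *sox11b* 0.73. *sox9a* and *sox9b* had only 0.32, while *sox9b* had 0.79 with *sox3*. Between SoxB1 and SoxC genes r ran from −0.39 (*sox19a* and *sox4b*) to 0.28 (*sox3* and *sox11b*). Among other genes outside the marker lists, those most like *sox3* were *nrarpb* (0.92) and *notch1b* (0.90), both of the Notch pathway, and *si:ch73-21g5.7* (0.92). *sox9b* was closest to *sb:cb81* (0.91), *notch1b* (0.91) and *cldn5a* (0.89), and *sox9a* to *pla2g7* (0.96), *tmed3* (0.94) and *serpinh2* (0.94). *sox4b* was closest to *arid1b* (0.96), *gpr85* (0.96) and *phc2b* (0.94).

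Of the other 17 Sox genes followed, 10 had at least 100 UMIs in each library. Among the 15 gates, the SoxB1 genes *sox19b* (69.4 CPM in the mutant and 60.6 CPM in the sibling) and *sox1b* (43.5 and 32.3 CPM) had their highest values in radial glia, and so did *sox13* of the SoxD group (113 and 80.8 CPM). *sox10*, a SoxE gene of neural crest and myelinating glia, had 169 CPM in mutant and 141 CPM in sibling cartilage. *sox5*, *sox6* and *sox10* were past 2-fold higher in cartilage than in other cells in both libraries, 3 of 10 with enough UMIs, and 6 of the 10 were past 2-fold lower. Of all genes, 7.64% were higher in the mutant and 7.35% in the sibling, and the share lower was not counted. In the sibling *sox5* had 150 CPM (121 to 184) in bipolar cells and 103 CPM (84.0 to 124) in cartilage, and *sox6* had 575 CPM (496 to 662) in ganglion cells and 473 CPM (432 to 517) in cartilage, with intervals that overlapped for both genes. *sox5* and *sox6* encode SoxD proteins known to act with Sox9 in cartilage. Between progenitor gates and mature neurons, *sox13* and *sox19b* were higher among 7 with enough UMIs in the mutant. In the sibling *sox13* was higher and *sox6* and *sox12* lower among 5. The shares of all genes there were 13.6% higher and 29% lower in the mutant, and 12.8% and 41% in the sibling. Between newborn and mature neurons, *sox12* and *sox13* were higher among 6 in the mutant. In the sibling *sox12* was higher and *sox6* lower among 5. Of all genes, 4.54% were higher and 29.9% lower there in the mutant, and 3.75% and 36.4% in the sibling. None of 11 with enough UMIs passed 2-fold between mutant and sibling over all cells, where 1.07% of all genes were higher and 5.13% lower. In the progenitor gates *sox10* was higher among 6, where 3.01% of all genes were higher and 0.709% lower.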

How the data were processed

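Single-cell libraries were made with a 10x Genomics 3′ v3.1 kit from whole brains, 1 library per genotype. The counts deposited by the authors are raw UMI counts per gene and barcode, made with Cell Ranger (5.0.0 by the matrix header, 5.1.0 in the submitters' notes) against GRCz11 with Ensembl annotation, with barcodes called by EmptyDrops. The kit counts the 3′ end of transcripts, so levels were not compared between genes.

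Following the limits in the study's methods, barcodes were kept if they had at least 200 and at most 3000 detected genes, a total below 20000 UMIs and a mitochondrial share below 15%. This left 8511 of 8799 mutant and 8150 of 8557 sibling barcodes. The top 7.5% by Scrublet score (scanpy 1.11.5) were then removed as doublets (638 and 611), in place of DoubletFinder. Cell types were rebuilt from 23 marker lists, since no annotation was used, and cells that met several gates (516 and 718) or none (975 and 1131) were given to no type. Ratios have exact conditional binomial, levels exact Poisson and shares Clopper-Pearson intervals (scipy 1.17.1). Where a count was 0, a limit of 3 UMIs was used. Shares were also taken after thinning each cell to 1000 UMIs, shallower cells left out and the gates of full depth kept. As an alternative, cells were thinned before gating, so that the gates themselves changed. A gene was counted as past 2-fold only with at least 100 UMIs over both groups. On simulated Poisson counts the ratio intervals held the true value in 94.2 to 97.5% of 2000 draws per setting. Such counts are what the intervals assume, so this checks the calculation and not their fit to these data.

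The genes named are the 9 members, 17 other Sox genes, and for each member the genes with the highest Pearson r over the gates among those with at least 200 UMIs and in no marker list. Members and lists were chosen with earlier results of these data known. The alternatives tried were the filters on cells, doublet removal, thinning, leaving out the cell with the most UMIs of a gene, 1 more marker per gate, scaling by the median gene ratio, no epidermis gate, and gates weighted as in the sibling. The last 2, thinning with the gates kept, and the alternatives for mutant over sibling ratios within gates, were chosen after seeing the data.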

Additional observations from a re-analysis of the deposited data

How the results depend on the processing

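Of 1015 alternative values, 839 moved by less than their counting error and 163 moved by more. Another 13 fell on the other side of 1 from a reported ratio whose interval excluded 1. Values that crossed 1 from a ratio whose interval held 1 were counted among the 839 or the 163. No paired analysis was possible because each genotype had 1 library. Depth limits *sox9a*, *sox9b*, *sox19a* and *sox4b* in small gates, and the cause of the shifts below was not tested.

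With every cell thinned to 1000 UMIs and the gates of full depth kept, an alternative chosen after seeing the data, the mutant over sibling ratio was 0.73 for SoxB1 in *elavl3*+ mitotic cells, 0.67 for SoxC in newborn neurons and 0.99 for *sox4b* in the progenitor gates against 1.93. The progenitor over mature ratio was 0.34 in the mutant and 0.24 in the sibling for SoxC and 6.22 in the mutant for the *sox9* genes. The newborn over mature ratio was 0.96 and 1.44 for SoxC and 2.96 in the mutant for the *sox9* genes. *sox9b* in cartilage over other cells was 3.17 in the mutant against 1.74, and 0 in the sibling against 0.25.

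Thinning to 1000 UMIs before gating changed which cells a gate held, since fewer markers were detected. With it, the mutant over sibling ratio over all cells was 1.46 for SoxB1 and 1.02 for SoxC. In the progenitor gates it was 1.29 for SoxC, 0.92 for the *sox9* genes against 1.28, and 0.9995 for *sox9b* against 1.33. In *elavl3*+ mitotic cells it was 0.96 for SoxB1, 1.17 for SoxC and 0.93 for *sox11a* against 1.42. The progenitor over mature ratio was then 0.54 in the mutant and 0.48 in the sibling for SoxC, 3.97 and 34.1 for the *sox9* genes (11.8 and 6.38 as reported), and 1.03 for *sox11b* in the sibling against 0.46. The newborn over mature ratio was 2.96 in the mutant and 1.91 in the sibling for SoxB1, 1.21 and 1.89 for SoxC, and 0.76 and 8.0 for the *sox9* genes against 6.47 and 3.85. Single genes that turned in that comparison, from an interval that excluded 1, were *sox4a* (1.20), *sox11a* (1.21) and *sox9b* (0.91) in the mutant and *sox2* (0.67) in the sibling. *sox9a* in mutant cartilage over other cells was 11.6.

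Without upper limits on genes and UMIs, the mutant over sibling ratio over all cells was 1.24 for SoxB1 and 1.28 for SoxC, and 1.13 for SoxB1 in the progenitor gates. The progenitor over mature ratio was 9.23 in the mutant and 7.78 in the sibling for SoxB1, 0.24 and 0.18 for SoxC, and 4.38 in the sibling for the *sox9* genes. With all deposited barcodes the same values were 1.22, 1.29 and 1.08, then 8.48 and 7.63 for SoxB1, 0.24 and 0.19 for SoxC, and 7.40 and 4.23 for the *sox9* genes, whose ratio in *elavl3*+ mitotic cells was 0.35 against 0.80. Without doublet removal that ratio was 0.35, and SoxB1 had 0.52 in those cells.

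With 1 more marker per gate, the progenitor over mature ratio was 9.93 for SoxB1 in the mutant, and 0.42 in the mutant and 0.29 in the sibling for SoxC, whose newborn over mature ratio was 0.93 and 1.34. With at least 500 genes per cell the SoxC newborn over mature ratio was 0.81 and 1.14. Scaling by the median gene ratio gave 1.44 for SoxB1 and 1.23 for SoxC over all cells, and 1.44 for SoxC in *elavl3*+ mitotic cells. With gates weighted as in the sibling, the ratios over all cells were 1.1 for SoxB1, 1.04 for SoxC, 0.88 for *sox19a* and 0.98 for *sox11b*. The number of genes past 2-fold between mutant and sibling was 837 with a minimum of 100 UMIs, 1794 with 20 and 313 with 500.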

Other observations

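Pairs of members were looked at within single cells after thinning to 1000 UMIs. In mutant radial glia, *sox2* and *sox3* were found together in 14.7% of 177 cells, where the product of their separate shares is 13.1%. In sibling radial glia they were found together in 9.57% of 94 cells, with a product of 8.15%. In mature neurons *sox2* and *sox3* were both rare, and *sox3* was found in 4.76% of mutant and 16.7% of sibling cells with *sox2*, against 1.04% and 0.927% of cells without it. These are 2 and 6 cells with both genes.

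*sox11a* and *sox11b* were found together in 17.2% of 361 mutant and 14.8% of 88 sibling *elavl3*+ mitotic cells, where the products are 14.9% and 11.6%. *sox4a* and *sox11a* were together in 8.68% of 311 mutant and 10.6% of 218 sibling newborn neurons, with products of 9.03% and 11.8%. A cell without a UMI at this depth may still express the gene.

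In mutant cartilage 11 *sox2* UMIs were found, 7 of them in 1 cell, and in sibling cartilage 0.

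*sox19a* had 32 UMIs in the sibling epidermis gate, which is 10.1% of the gene's UMIs in that library.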
